A study of Mus musculus with 4 samples.

Results

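The genes described here are 37 markers and regulators of endothelium, the cell layer that lines blood vessels, measured by RNA sequencing of the first pharyngeal arch of mouse embryos. They were taken by symbol from a list of genes with known roles in endothelium. The list was chosen with earlier results of these data known. A gene was analysed where its mean over the 4 libraries was at least 10 normalized reads. Of the 37 genes 36 reached that level, out of 16746 genes in the whole table that did so. The exception was Lyve1, a hyaluronan receptor of lymphatic endothelium and macrophages, with a mean of 2.95. The lowest genes inside the limit were Stab2 with a mean of 16.5 and Esm1 with 18.4.

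The arches came from embryos of 25 to 27 somites, staged at E9.5 to E9.75. The mutant genotype was Wnt1-Cre;pMes-Bmp4, in which a Cre recombinase driven by Wnt1 regulatory sequence acts on a Bmp4 transgene in the neural crest lineage. These arches, called transgenic here, were set against wild-type arches, with 2 libraries of each genotype, numbered 1 and 2. None of the 4 libraries carried 1 of these transgenes alone, so that an action of Bmp4 and one of either transgene by itself, or of the strain, cannot be told apart. The labels give neither the number of embryos behind a library nor whether libraries 1 and 2 came from separate litters, so that p-values speak only for the spread among these 4 libraries, which may be technical. Read totals lay between 29607541 and 31404494 in Wnt1-Cre;pMes-Bmp4 and between 33763574 and 47849092 in wild-type. As a check of the labels, Bmp4 had 2656 and 1745 normalized reads in Wnt1-Cre;pMes-Bmp4 against 682 and 437 in wild-type.

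Endothelial cells hold together through the cadherin and adhesion molecules of their junctions, and they grow and survive on VEGF and angiopoietin signals read by receptor tyrosine kinases. Their identity is set by ETS factors such as ERG and FLI1 and by SOX factors of the F group. In the arches they form the arch arteries and the small vessels of the mesenchyme, and the first arch artery is a passing vessel of the embryo. Arch endothelium comes mainly from mesoderm, whereas Wnt1-Cre is used to mark neural crest.

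Cd34, a sialomucin on the surface of endothelial and blood progenitor cells, was the 1 gene of the 36 that passed the test. Its mean was 1.95-fold that of wild-type arches. The other surface genes Emcn, Icam2, Ecscr, Esam and Pecam1 had transgenic means 1.45 to 1.60 times those of wild-type and did not pass the test across all genes. The cadherin Cdh5, the VEGF receptor Kdr and the transcription factors Sox18 and Erg lay within 0.1 log2 units of no difference. None of the 36 was called lower in that test. In a wider list of other endothelial genes, 1 of 33 was called higher and 3 lower. These are 3.03% and 9.09%, where 2.97% and 5.28% of all genes tested were called.

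The test was limma on log2 of the normalized read count plus 1, across all 16746 genes, two-sided, and a gene was called at a Benjamini-Hochberg adjusted p under 0.05. A log2 fold change is the mean log2 value of the transgenic libraries less that of the wild-type libraries, and the added 1 makes it too small for low genes. The plain folds are ratios of group means. Of the 36 genes 1 was called higher, or 2.78%, against 2.97% of all genes tested. None was called lower in limma, against 5.28% of all genes tested, and in both directions together 8.25% of all genes were called. At an unadjusted limma p under 0.05 there were 11 higher and 0 lower, where the shares among all genes tested were 13.4% and 15.3%. Fitted without a trend in its prior variance, limma had 7 higher and 0 lower at that level. The 7 are 19.4%, where 9.32% of all genes tested were then higher and 14.1% lower. The edgeR quasi-likelihood test on recovered reads also called Cd34 higher and none lower, where its shares among all genes were 2.44% and 5.46%. DESeq2 called 5 genes higher, Cd34, Aplnr, Emcn, Esam and Ecscr, and none lower, where its shares were 7.67% and 9.45%. With limma and edgeR the adjusted share called higher was near that of the whole table, with DESeq2 it was 13.9%, and at an unadjusted limma p it was 30.6%.

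Both transgenic libraries lay above both wild-type libraries in 12 of the 36 genes, or 33.3%, where the share among all genes tested was 30.0%. They lay below in 5 genes, or 13.9%, where that share was 29.7%. The other 19 overlapped. The median log2 fold change of the 36 genes ran from 0.033 to 0.24 with a library left out. With all 4 libraries it was 0.16, against 0.02 over all genes tested. A positive log2 fold change was seen in 22 of the 36, or 61.1%, against 51.3% of all genes tested. These are whole-arch libraries, in which more or fewer endothelial cells and more or less RNA per endothelial cell cannot be told apart.

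**Figure D1:**
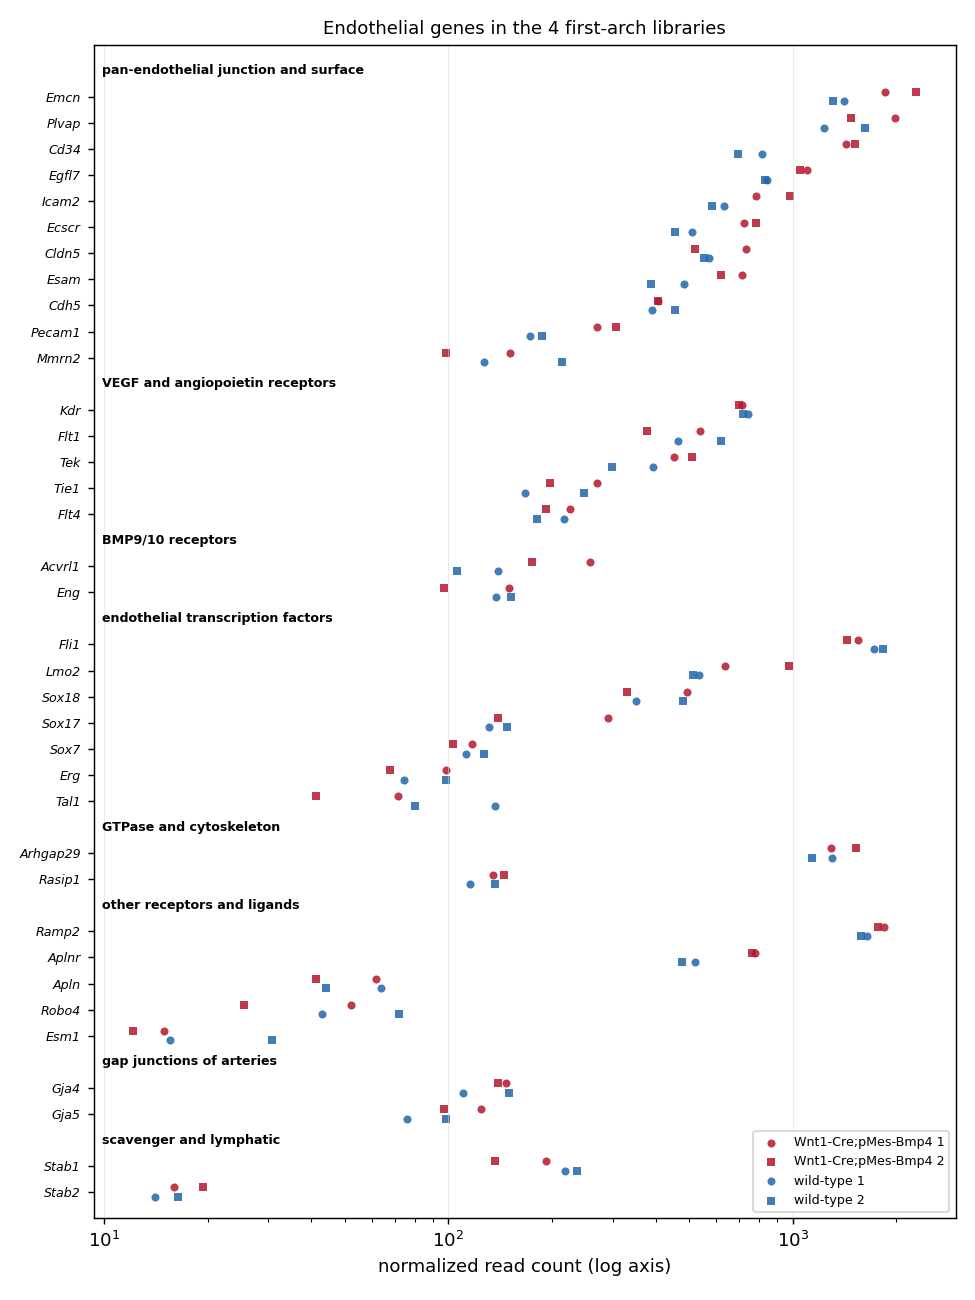
Normalized read counts, on a log axis, of the 36 endothelial genes in each library, grouped by role and sorted by mean; red points are Wnt1-Cre;pMes-Bmp4, blue points wild-type, circles library 1 and squares library 2. Cd34 lies at 1423 and 1514 in Wnt1-Cre;pMes-Bmp4 and at 812 and 692 in wild-type, while the points of Cdh5, Sox18 and Erg overlap between the genotypes.

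Cd34 had 1423 and 1514 normalized reads in transgenic libraries 1 and 2, against 812 and 692 in wild-type libraries 1 and 2. The genotypes did not overlap, and the gap between them was larger than the spread within either. Group means were 1469 ± 64.8 in transgenic arches and 752 ± 84.9 in wild-type (SD, n = 2 each), and the log2 fold change of 0.97 ± 0.15 (SE) passed at an adjusted p of 0.0233 in limma. Cd34 lies on chromosome 1 at 194938819 to 194961279 of GRCm38. An antisense gene shares 2.03% of its exon bases, and whether counting used the strand is not given in the sources used here. Limma did not call the gene without wild-type 1, at 1.08 log2 units, nor without wild-type 2, at 0.85. In both of those fits hardly any gene of the whole table was called. Over 18 alternative fits the log2 fold change of Cd34 ran between 0.66 and 1.08, the adjusted p between 1.74e-06 and 0.348, and 14 fits called it.

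The start regions of 3 genes are printed as examples, and a relation of the sequence to the results was not tested. They are Cd34, the gene that passed, Emcn, the gene with the highest mean, and Kdr, whose levels hardly differed. Each run spans 250 to 21 bases before the RefSeq start on GRCm38.p6, read along the gene, with capitals for AGGAAG on either strand. AGGAAG holds the core GGAA that ETS factors bind. The windows lie at chr1:194938571-194938800 on the plus strand for Cd34, at chr3:137340828-137341057 on the plus strand for Emcn and at chr5:75978476-75978705 on the minus strand for Kdr.
Cd34: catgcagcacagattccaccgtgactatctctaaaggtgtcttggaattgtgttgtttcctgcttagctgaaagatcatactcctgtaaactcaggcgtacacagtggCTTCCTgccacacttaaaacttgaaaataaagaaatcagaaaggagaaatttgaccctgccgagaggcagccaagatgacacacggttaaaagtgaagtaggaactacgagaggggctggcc
Emcn: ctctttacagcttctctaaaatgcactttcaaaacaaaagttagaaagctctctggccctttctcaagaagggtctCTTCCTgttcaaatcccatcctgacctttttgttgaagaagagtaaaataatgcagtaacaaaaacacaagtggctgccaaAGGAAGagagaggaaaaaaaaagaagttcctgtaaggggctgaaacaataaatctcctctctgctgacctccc
Kdr: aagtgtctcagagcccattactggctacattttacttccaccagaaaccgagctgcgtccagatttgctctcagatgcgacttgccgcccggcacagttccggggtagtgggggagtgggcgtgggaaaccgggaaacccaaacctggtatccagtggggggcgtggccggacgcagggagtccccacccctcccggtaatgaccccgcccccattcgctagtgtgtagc

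The Cd34 window holds AGGAAG 1 time and the Emcn window 2 times, and the Kdr window has no match to these letters. RefSeq start windows were found for 21 of the 36 genes, 27 windows in all. AGGAAG was in 14 of the 27 windows, or 51.9%, against 27.2% of all 32851 windows of the same length. Of the 13 genes with it, Eng, Flt1, Robo4, Stab1, Erg and Apln had a negative log2 fold change. Cd34, Emcn, Egfl7, Gja5, Tie1, Rasip1 and Stab2 had a positive one. AGGAAG or CGGAAG was in 51.9% of the 27 windows, against 35.9% of all windows. Another ETS form, CGGAAG, which differs in its first letter, was in 2 of the 27 windows, or 7.41%, against 11.7% of all windows. GATAAG, a form bound by GATA factors, was in 1 window, that of Erg, or 3.70%, against 6.16% of all windows. The motifs were searched on both strands, and a match is a run of letters, not a shown binding site.

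The 11 junction and surface genes were the group with the most positive values. Of them 1 passed, Cd34, 9 had a positive log2 fold change, and 7 had both transgenic libraries above both wild-type libraries, where over all genes tested 51.3% were positive and 30.0% lay above without overlap. At an unadjusted limma p under 0.05, 7 of the 11 were higher, or 63.6%, against 13.4% of all genes tested. After a correction for transcript length none of the 11 passed. At an unadjusted p under 0.05, 4 were then higher, or 36.4%, against 11.5% of all genes tested. The group's median log2 fold change was 0.53, against 0.02 for all genes tested. Its summed normalized reads were 10129 and 10045.2 in transgenic arches against 7183 and 7296 in wild-type.

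Ecscr, an endothelial surface protein of cell shape and migration, had 722 and 783 normalized reads in transgenic arches against 511 and 454 in wild-type. Its libraries did not overlap between genotypes. The difference of 0.64 ± 0.17 log2 units (SE) did not pass, at an adjusted p of 0.057 in limma. Emcn, endomucin, a sialomucin of veins and capillaries, had 1847 and 2284 in transgenic arches against 1413 and 1311 in wild-type, with a difference of 0.59 log2 units and an adjusted p of 0.0583 in limma. The libraries of Emcn did not overlap either, and the transgenic ones differed from each other by about as much as the lower of them did from wild-type. Ecscr and Emcn were called in 7 and 5 of 18 alternative fits, with adjusted p values between 0.00514 and 0.479 for Ecscr and between 0.000142 and 0.473 for Emcn.

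Pecam1, the platelet and endothelial adhesion molecule CD31 that is the common stain for vessels, had 271 and 307 normalized reads in transgenic arches against 173 and 187 in wild-type. Esam, a tight junction adhesion molecule, had 713 and 619.6 in transgenic arches against 483 and 389 in wild-type. Icam2, an adhesion molecule of endothelium and platelets, had 781 and 982 in transgenic arches against 632 and 584 in wild-type. None of the 3 overlapped between the genotypes, and none passed, with limma adjusted p values of 0.0883 for Pecam1, 0.0841 for Esam and 0.103 for Icam2. Egfl7, a secreted protein of the vessel wall and host gene of miR-126, had 1099.6 and 1052 in transgenic arches against 839.7 and 832 in wild-type, a separated but small difference of 0.36 log2 units and an adjusted p of 0.148 in limma. Other genes share exon bases with Egfl7, the largest share being 7.37%.

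Cdh5, the VE-cadherin that holds endothelial junctions together, had 405 and 405 normalized reads in transgenic arches against 390.2 and 456 in wild-type. The transgenic values lay between the wild-type ones. Its log2 fold change was -0.06 with a 95% interval of -0.48 to 0.37. The log2 fold changes of Cd34, Pecam1, Ecscr, Esam, Emcn and Icam2 lie above that interval, and that of Egfl7 lies inside it. The 95% interval of Cd34 starts at 0.61, while the intervals of the other genes named overlap that of Cdh5. The tight junction protein Cldn5 had 734 and 519 in transgenic arches against 571 and 552 in wild-type, and the diaphragm protein Plvap had 1982 and 1480.4 in transgenic arches against 1231 and 1625 in wild-type. In both genes the genotypes overlapped. Mmrn2, a matrix protein of endothelium, was the 1 gene besides Cdh5 in this group with a negative value, at 151 and 98.2 in transgenic arches against 127 and 214 in wild-type, again overlapping.

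**Figure D2:**
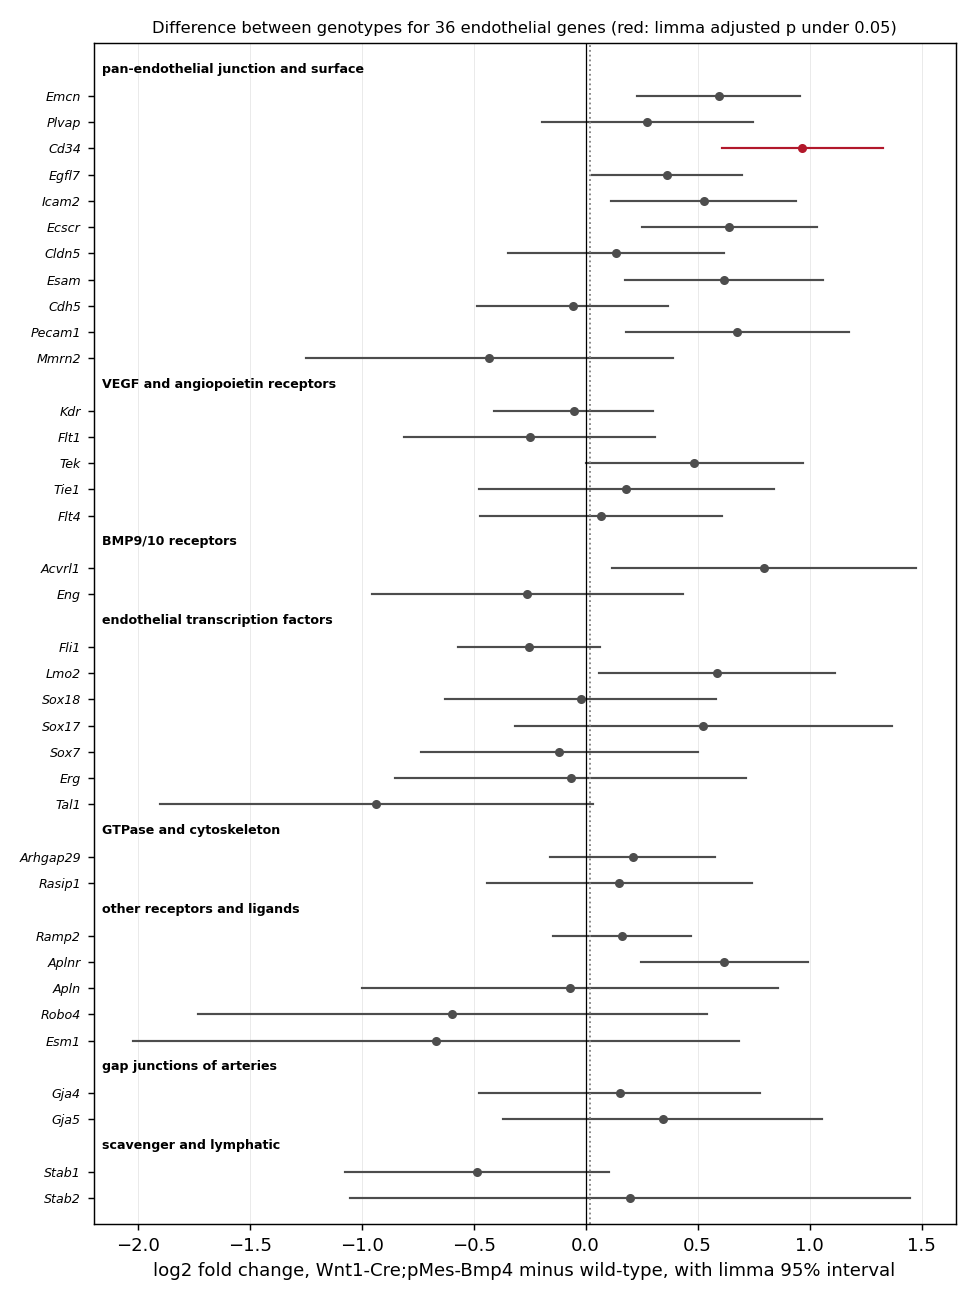
Log2 fold change of each of the 36 genes, Wnt1-Cre;pMes-Bmp4 minus wild-type, with its limma 95% interval, grouped by role in the order of the plot of values; the dotted line is the median of all genes tested, 0.02, and red marks a limma adjusted p under 0.05. Cd34, at 0.97, is the red point, and most other junction and surface genes lie right of 0 while Cdh5, Kdr, Sox18 and Erg lie at it.

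Outside the junction and surface group limma called none of the other 25 genes in either direction. At an unadjusted p under 0.05 limma had 4 higher and 0 lower, edgeR called none, and DESeq2 called Aplnr higher. Among them, the 5 receptors for VEGF and angiopoietins had a median log2 fold change of 0.07. Kdr, the main signalling receptor for VEGF-A, had 710.3 and 698 normalized reads in transgenic arches against 742 and 719 in wild-type. The transgenic libraries were slightly below both wild-type libraries, with a log2 fold change of -0.05, a 95% interval of -0.41 to 0.30, and a value of 0.27 after correction for transcript length. Flt1, which binds VEGF-A and acts largely as a trap for it, had 539 and 377 in transgenic arches against 464 and 619 in wild-type, a difference of -0.25 ± 0.24 log2 units (SE) and an adjusted p of 0.527 in limma. Flt4, the receptor of VEGF-C, had 225 and 192 in transgenic arches against 217 and 181 in wild-type. In Flt1 and Flt4 the genotypes overlapped.

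Tek, the angiopoietin receptor TIE2, had 452 and 509 normalized reads in transgenic arches against 393 and 298 in wild-type. It was the receptor of this group whose transgenic libraries were both higher. The difference of 0.49 ± 0.21 log2 units (SE) did not pass, at an adjusted p of 0.174 in limma. Tie1, its orphan partner receptor, had 270 and 198 in transgenic arches against 167 and 248 in wild-type and overlapped.

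Acvrl1 and Eng encode parts of the endothelial receptor for BMP9 and BMP10, ACVRL1 the type I kinase and endoglin the co-receptor. Acvrl1 had 257 and 175 normalized reads in transgenic arches against 139 and 106 in wild-type, with a difference of 0.80 ± 0.29 log2 units (SE) and an adjusted p of 0.125 in limma. Eng had 150.4 and 97.0 in transgenic arches against 138 and 152 in wild-type, with a difference of -0.26 ± 0.30 log2 units (SE) and an adjusted p of 0.593 in limma. Acvrl1 thus separated the genotypes without passing, and Eng overlapped. Their ligands were at the floor of the table, with Bmp10 listed at 0 in all 4 libraries and Gdf2, the gene of BMP9, below the minimum mean.

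Of the 7 transcription factors 2, Lmo2 and Sox17, had a positive log2 fold change, and none passed in limma, edgeR or DESeq2. The group's summed normalized reads were 3250 and 3099 in transgenic arches against 3066 and 3276 in wild-type. Lmo2, a LIM-only partner of TAL1 in blood and endothelial precursors, had 636 and 976 in transgenic arches against 533 and 514 in wild-type. Both transgenic libraries were higher but far apart, and the difference of 0.59 ± 0.22 log2 units (SE) had an adjusted p of 0.139 in limma.

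Tal1, a basic helix-loop-helix factor of blood and early endothelium and the partner of LMO2, had 71.5 and 41.2 normalized reads in transgenic arches against 136 and 80.2 in wild-type. The genotypes did not overlap, but the libraries of each genotype lay further apart than the gap between the genotypes. The difference of -0.93 ± 0.41 log2 units (SE) had an adjusted p of 0.186 in limma. Tal1 is also a gene of red cell precursors. Of 15 erythroid markers 0 were called higher and 5 lower in limma, edgeR and DESeq2 alike, where limma called 5.28% of all genes lower, and no marker was at 0. After the length correction limma called 2 lower, Hba-x and Hba-a2, where it called 0.938% of all genes tested lower. Without its trend limma called none of the markers, and no gene of the whole table. At an unadjusted p under 0.05 it then had 6 of the 15 lower, or 40.0%, against 14.1% of all genes tested. Without wild-type 1 or without wild-type 2 limma called hardly any gene of the whole table and did not call these markers. Their summed normalized reads were 420094 to 451599 in transgenic arches and 740106 to 812251 in wild-type. The 5 called by limma were the globin genes Hbb-y, Hba-x, Hba-a1 and Hba-a2, of which the last 2 are near-identical copies and so uncertain, and Slc4a1, the anion exchanger of red cells. Hbb-y had 160148 and 162543 in transgenic arches against 330266 and 309273 in wild-type. The part of red cells in the Tal1 values was not tested.

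The SOX factors of the F group, Sox7, Sox17 and Sox18, act together in vessel identity. Sox18 had 494 and 331 normalized reads in transgenic arches against 352 and 479 in wild-type, and Sox7 had 117 and 103 in transgenic arches against 113 and 127 in wild-type. Sox17, which marks arterial endothelium and also endoderm, had 290.1 and 139 in transgenic arches against 131 and 148 in wild-type. All 3 overlapped between the genotypes, and Sox17 was high in transgenic library 1 alone. Its log2 fold change was 0.53 with all libraries and -0.00015 without transgenic library 1. Without transgenic library 2 it was 1.05, and limma then called it at an adjusted p of 0.00483.

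Erg and Fli1 are the ETS factors of endothelium. Erg had 98.1 and 67.9 normalized reads in transgenic arches against 74.2 and 98.7 in wild-type and overlapped, with a 95% interval of its log2 fold change from -0.85 to 0.72. Fli1, which is also expressed in neural crest mesenchyme, had 1543 and 1440.4 in transgenic arches against 1727 and 1829 in wild-type. Both transgenic libraries lay below both wild-type libraries by a small amount, and the gene did not pass, at -0.25 log2 units and an adjusted p of 0.261 by limma. Per kilobase of transcript Fli1 had a mean of 449.6 normalized reads in transgenic and 536 in wild-type arches, and Erg 25.5 in transgenic and 26.6 in wild-type arches.

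The apelin receptor Aplnr, a G protein-coupled receptor of venous and sprouting endothelium, had 775 and 760.2 normalized reads in transgenic arches against 521 and 478 in wild-type. Libraries of 1 genotype lay close together and the genotypes did not overlap. The log2 fold change was 0.62 ± 0.16 (SE), just outside the threshold at an adjusted p of 0.0566 in limma, and 8 of 18 alternative fits called it, with adjusted p values between 0.0125 and 0.474. Its ligand Apln, a marker of tip cells, had 61.9 and 41.2 in transgenic arches against 63.8 and 44.2 in wild-type and overlapped.

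Ramp2 makes the adrenomedullin receptor together with Calcrl. It had 1837 and 1769 normalized reads in transgenic arches against 1639 and 1579 in wild-type, with a difference of 0.16 ± 0.13 log2 units (SE) and an adjusted p of 0.445 in limma. The genotypes were separated by a narrow margin. The annotation gives Ramp2 33.4% of its exon bases in common with Vps25, so that its reads may be split. Robo4, a roundabout receptor of endothelium, had 52.3 and 25.5 in transgenic arches against 43.0 and 72.0 in wild-type and overlapped. Esm1, a proteoglycan secreted by tip cells, had 14.9 and 12.1 in transgenic arches against 15.6 and 30.9 in wild-type, levels too low to fix a direction.

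Rasip1 and Arhgap29 act together when vessels form a lumen. Arhgap29, which is also expressed in facial mesenchyme and epithelium, had 1293 and 1528 normalized reads in transgenic arches against 1298 and 1137 in wild-type, with a difference of 0.21 ± 0.16 log2 units (SE) and an adjusted p of 0.413 in limma. Rasip1 had 134 and 145 in transgenic arches against 116 and 137 in wild-type, with a difference of 0.15 ± 0.25 log2 units (SE) and an adjusted p of 0.725 in limma. Both genes overlapped between the genotypes. Rasip1 shares up to 20.4% of its exon bases with a neighbour, Izumo1.

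The connexins of arterial endothelium, Gja4 and Gja5, also overlapped. Gja4 had 147 and 139 normalized reads in transgenic arches against 111 and 150.2 in wild-type, with a difference of 0.15 ± 0.27 log2 units (SE) and an adjusted p of 0.74 in limma. Gja5 had 125 and 97.0 in transgenic arches against 75.7 and 98.7 in wild-type, with a difference of 0.34 ± 0.30 log2 units (SE) and an adjusted p of 0.489 in limma.

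Stab1 and Stab2 are scavenger receptors of sinusoidal and lymphatic endothelium, and Stab1 is found on macrophages too. Stab1 had 192 and 137 normalized reads in transgenic arches against 219 and 237 in wild-type, with a difference of -0.49 ± 0.25 log2 units (SE) and an adjusted p of 0.25 in limma. The genotypes were separated, but after correction for transcript length its log2 fold change was 0.01. Stab2 had 16.0 and 19.4 in transgenic arches against 14.1 and 16.5 in wild-type, near the minimum level, with a difference of 0.20 ± 0.53 log2 units (SE) and an adjusted p of 0.834 in limma. Lyve1, below the minimum, had 2.13 and 1.21 in transgenic arches against 7.42 and 1.03 in wild-type.

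Levels can be set between genes only per length of transcript. On the scale of normalized reads per kilobase of the longest annotated transcript, Ramp2 was highest, with group means of 1219.7 in transgenic arches and 1089 in wild-type. Plvap came next, at 871 in transgenic and 719 in wild-type arches. Icam2, Ecscr, Egfl7, Emcn, Cd34, Lmo2, Fli1 and Cldn5 lay between 442 and 688 in transgenic arches and between 246 and 536 in wild-type. Kdr was the highest of the VEGF and angiopoietin receptors, at 119 in transgenic and 123 in wild-type arches. Tek was at 103 in transgenic and 74.3 in wild-type arches, and Flt1 at 66.4 in transgenic and 78.5 in wild-type arches, so that the order of this pair differed between the genotypes. Tie1 and Flt4 lay lower, Tie1 at 55.2 in transgenic and 49.0 in wild-type arches and Flt4 at 33.3 in transgenic and 31.8 in wild-type arches. The lowest genes tested were Esm1, at 6.45 in transgenic arches and 11.1 in wild-type, and Stab2, at 2.15 in transgenic and 1.86 in wild-type arches.

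Each gene was also expressed as a percent of the summed normalized reads of the 37 genes in its library, a measure that does not depend on how libraries were scaled. The sums were 20632 and 20065 in transgenic arches against 16633 and 16876 in wild-type, or 0.0616% and 0.0559% of all normalized reads in transgenic arches against 0.0469% and 0.0486% in wild-type arches. Cd34 made up 6.90% and 7.55% in transgenic arches against 4.88% and 4.10% in wild-type. Fli1 made up 7.48% and 7.18% in transgenic arches against 10.4% and 10.8% in wild-type. Of the summed whole-arch reads of the 37 genes, Cd34 thus held a larger share in the transgenic libraries and Fli1 a smaller one, without overlap. Kdr made up 3.44% and 3.48% in transgenic arches against 4.46% and 4.26% in wild-type, also without overlap, although its own level hardly differed.

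Transcript length moved with the difference between the genotypes across the whole table. Over all genes tested, log2 fold changes had a median of 0.15 for transcripts under 2000 bases, 0.13 from 2000 to 4000 bases and -0.26 from 4000 bases up. The endothelial genes had medians of 0.32 over 10 genes, 0.05 over 16 genes and 0.01 over 10 genes in the same bins. The Spearman correlation of the log2 fold change with length was -0.31 across the 36 endothelial genes and -0.28 across 16225 genes, as a description only, since genes of 1 library share its depth and composition. After a spline on length was removed from each library, 0 of the 36 genes passed in limma in either direction, where 0.627% of all genes were then called higher and 0.938% lower. At an unadjusted p under 0.05 there were then 8 higher and 1 lower, or 22.2% and 2.78%, against 11.5% and 12.2% of all genes tested. Cd34 had 0.83 log2 units and an adjusted p of 0.0512 in that limma fit. The large receptor genes moved up with it, Kdr to 0.27 and Flt1 to 0.17. With GC content corrected as well, 2 genes were called higher, Cd34 and Aplnr, where 3.87% of all genes were, and 1 lower, Fli1, where 4.38% were. Their limma adjusted p values were then 0.0254 for Cd34, 0.0384 for Aplnr and 0.0491 for Fli1, and the median of the 36 genes was 0.32.

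**Figure D3:**
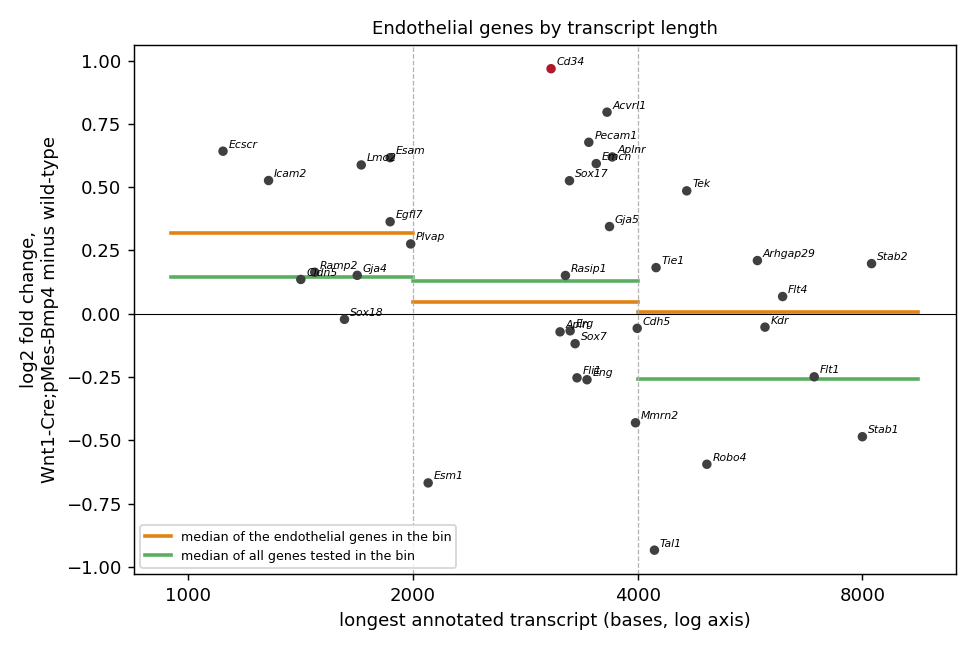
Log2 fold change of the 36 endothelial genes, Wnt1-Cre;pMes-Bmp4 minus wild-type, against the length of the longest annotated transcript on a log axis; orange lines are medians of the endothelial genes and green lines medians of all genes tested, in bins parted at 2000 and 4000 bases. All genes fall to a median of -0.26 in the longest bin, where the endothelial genes have a median of 0.01.

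A wider list of 34 other genes known from endothelium was read in the same way. Of 33 tested 1 was called higher and 3 lower, the median log2 fold change was -0.03 and 15 were positive. Its summed normalized reads were 9243 and 7956 in transgenic arches against 8213 and 9084 in wild-type, so that the larger sum of the 37 genes was not seen in this list. Clec14a, a surface lectin of endothelium, was 2.17-fold higher, with 364 and 349 in transgenic arches against 161 and 168 in wild-type, a difference of 1.11 ± 0.20 log2 units (SE) and an adjusted p of 0.0279 in limma. It also passed after the length correction, at a log2 fold change of 1.25 and an adjusted p of 0.0389 in limma. Without wild-type 1 or without wild-type 2 limma called neither Clec14a nor any other gene of the lists set beside the 37. In those fits it called hardly any gene of the whole table.

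The 3 called lower were Heg1, a junctional receptor of heart and vessels, Plxnd1, a semaphorin receptor, and Ppp1r16b, a phosphatase subunit. Heg1 had 189 and 159 normalized reads in transgenic arches against 382 and 562 in wild-type. Plxnd1 had 197 and 156 in transgenic arches against 386 and 512 in wild-type, and Ppp1r16b had 71.5 and 81.2 in transgenic arches against 174 and 163 in wild-type. Their longest transcripts have 8161, 6907 and 6685 bases. After the length correction limma no longer called them, at -0.90 log2 units for Heg1, -0.92 for Plxnd1 and -0.73 for Ppp1r16b, with adjusted p between 0.0676 and 0.157. After the length and GC correction limma called Heg1 lower, at -0.84 log2 units and an adjusted p of 0.0442, and did not call Plxnd1 at 0.14 or Ppp1r16b at 0.155.

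Of 13 ligands of vessel receptors tested 1 was higher and 1 lower, with a median log2 fold change of -0.01. Each is 7.69% of the list, where limma called 2.97% of all genes tested higher and 5.28% lower. Pgf, placental growth factor, which binds FLT1, was 1.82-fold higher, with 662 and 719 normalized reads in transgenic arches against 395 and 366 in wild-type and an adjusted p of 0.0327 in limma. Slit3, a ligand of roundabout receptors, was 2.18-fold lower, with 278 and 232 in transgenic arches against 539 and 571 in wild-type and an adjusted p of 0.0264 in limma. After the length correction neither passed, with limma adjusted p values of 0.0788 for Pgf and 0.0548 for Slit3. After the length and GC correction both passed, at 0.0342 for Pgf and 0.0358 for Slit3 in limma.

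Of 11 arterial genes tested 0 were higher and 1 lower, of 4 venous genes 0 and 1, and of 3 lymphatic genes 0 and 1. Limma called 2.97% of all genes tested higher and 5.28% lower, and 1 call in lists this short cannot be set against those shares. The arterial one was Efnb2, ephrin-B2, which is also a gene of arch mesenchyme, with 1032 and 794 normalized reads in transgenic arches against 1567 and 1812 in wild-type and an adjusted p of 0.0336 in limma. The venous one was Nr2f2, which is also highly expressed in arch mesenchyme, with 1691 and 1415 in transgenic arches against 2836 and 3008 in wild-type and an adjusted p of 0.0233 in limma. In Reln, of the lymphatic list, the libraries had 29.9 and 27.9 in transgenic arches against 85.3 and 89.5 in wild-type, with an adjusted p of 0.0404 in limma. Whole-arch values cannot place these differences in vessels. With length corrected Nr2f2 passed at 0.0403, while Efnb2 and Reln did not, at 0.0629 and 0.17. With length and GC corrected limma called Nr2f2 at an adjusted p of 0.015 and Efnb2 at 0.0278, and did not call Reln at 0.164.

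**Figure D4:**
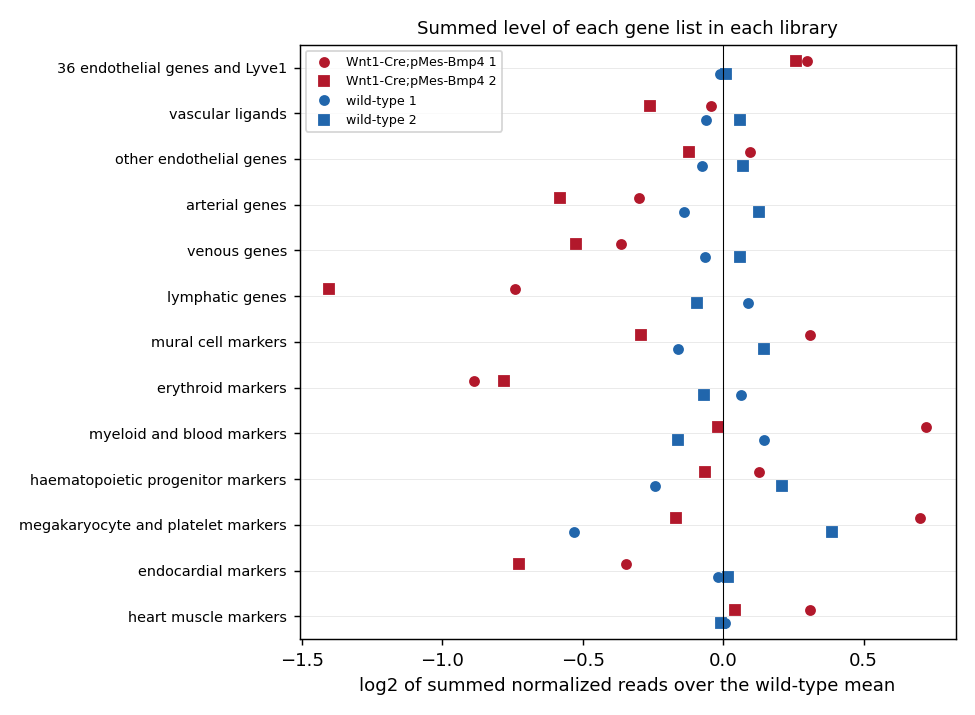
Log2 of the summed normalized reads of each gene list over the mean of the wild-type libraries; red points are Wnt1-Cre;pMes-Bmp4, blue points wild-type, circles library 1 and squares library 2. The endothelial genes analysed here sum to 20632 and 20065 in Wnt1-Cre;pMes-Bmp4 against 16633 and 16876 in wild-type, while the transgenic points of the erythroid markers lie left of their wild-type points.

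Cells that share genes with endothelium were followed by their own markers. Defining endothelial markers were present in every library, from Emcn at 1311 or more, through Pecam1 at 173 or more, to Erg at 67.9 or more. Of 10 myeloid markers tested, out of 15, 0 passed in either direction. Their sum was 395 and 236 in transgenic arches against 265 and 214 in wild-type. C1qb, a complement gene of macrophages, had 32.0 and 25.5 in transgenic arches against 16.3 and 11.3 in wild-type, with an adjusted p of 0.238 in limma. The macrophage markers Csf1r, Cx3cr1, C1qa, Adgre1 and Trem2 were below the minimum mean. Of these, Csf1r, Cx3cr1 and C1qa had both transgenic libraries below both wild-type libraries, Csf1r at 7.47 and 4.85 against 8.16 and 8.23. Adgre1 and Trem2 overlapped. Of 8 megakaryocyte and platelet markers tested 0 passed, with a sum of 1184 and 647 in transgenic arches against 504 and 951 in wild-type. Of 7 haematopoietic progenitor markers tested 0 passed, with a sum of 1719 and 1503 in transgenic arches against 1328 and 1816 in wild-type.

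Gata2, a factor shared by blood progenitors and endothelium, had 301 and 209.8 normalized reads in transgenic arches against 75.7 and 134 in wild-type, with an adjusted p of 0.0579 in limma, and 0.0264 after the length and GC correction. Ptprc, which marks all white cells, was at 21.3 and 19.4 in transgenic arches against 18.5 and 14.4 in wild-type. The part of these cells in the values of Cd34, Icam2, Pecam1 and Lmo2, which they also express, was not tested.

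Of 10 mural cell markers tested, out of 15, 0 passed. Rgs5, a marker of pericytes, had 38.4 and 61.8 normalized reads in transgenic arches against 21.5 and 6.17 in wild-type, with an adjusted p of 0.101 in limma, and Notch3, a receptor of mural cells, had 314 and 199 in transgenic arches against 353 and 489 in wild-type, with an adjusted p of 0.14. The sum of the list overlapped between the genotypes, at 2261 and 1493 in transgenic arches against 1633 and 2018 in wild-type. Of 4 endocardial markers tested 0 passed and all 4 had a negative log2 fold change, with a sum of 956 and 734 in transgenic arches against 1199 and 1228 in wild-type and Nfatc1 at an adjusted p of 0.0916 in limma. Of 8 heart muscle markers tested 0 passed, with a sum of 616 and 512 in transgenic arches against 499.9 and 495 in wild-type, and the atrial peptide gene Nppa was listed at 0 in every library. Over these 6 lists limma and edgeR called none in either direction, while DESeq2 called 1 progenitor marker, Gata2, higher and 1 endocardial marker, Nfatc1, lower. At an unadjusted p under 0.05 limma had 3 mural markers higher and 1 lower, 1 progenitor marker higher and 1 lower, and 2 endocardial markers lower. Among all genes tested the limma shares were 13.4% higher and 15.3% lower at that level, and 2.97% and 5.28% at the adjusted threshold.

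**Figure D5:**
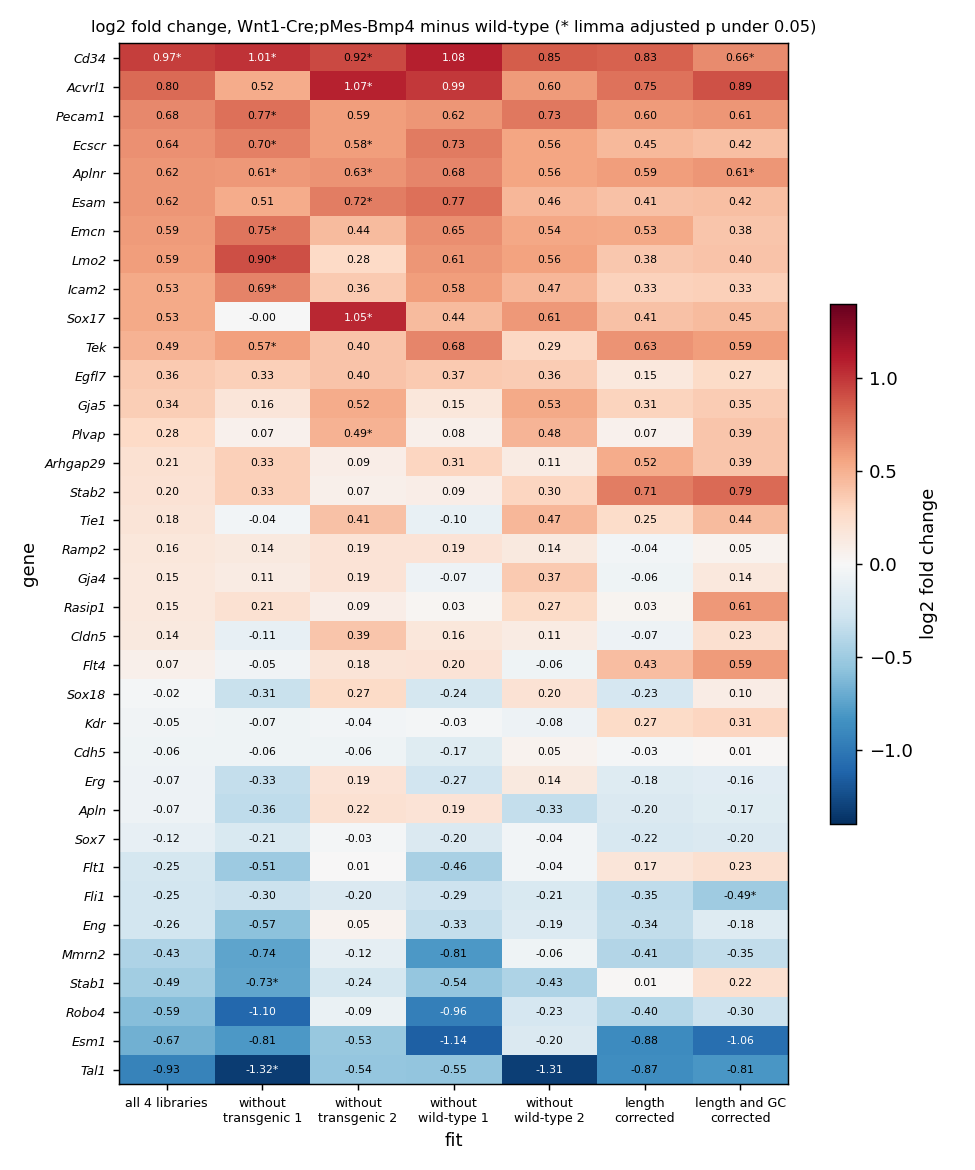
Log2 fold change of the 36 genes, Wnt1-Cre;pMes-Bmp4 minus wild-type, with all libraries, with each library left out and after correction for transcript length or for length and GC content; a star marks a limma adjusted p under 0.05. Cd34 lies between 0.66 and 1.08 in all columns, the columns without a wild-type library hold no star, and Sox17 runs from -0.00015 to 1.05. In the fits without a wild-type library hardly any gene of the whole table was called.

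The endothelial calls varied with the library left out, where the lone library of a genotype was taken to vary like the other genotype. Without transgenic 1 there were 8 called higher (Cd34, Aplnr, Lmo2, Emcn, Tek, Icam2, Pecam1 and Ecscr) and 2 lower (Tal1 and Stab1), where 16.0% and 16.2% of all genes tested were called. Without transgenic 2 there were 7 higher (Sox17, Cd34, Aplnr, Plvap, Esam, Acvrl1 and Ecscr) and 0 lower, where the shares were 7.17% and 11.4%. Without wild-type 1 or without wild-type 2 limma called hardly any gene of the whole table and did not call Bmp4. Those fits therefore cannot single out the endothelial genes, none of which they called. With a library left out, the median log2 fold change of the 36 genes ran from 0.033 to 0.24. Cd34, Ecscr and Aplnr were called in both fits that left out a transgenic library. In all 18 alternative fits the log2 fold changes of Cd34, Ecscr, Aplnr, Emcn, Esam, Pecam1, Icam2, Acvrl1, Lmo2, Tek and Egfl7 were positive. So were those of Plvap, Rasip1, Arhgap29 and Gja5, and that of Stab2 in its 17 fits. Those of Tal1, Fli1, Mmrn2 and Sox7 were negative, as were those of Robo4 and Esm1 in their 17 fits. These fits rework the same 4 libraries, so that a shared sign is not separate support.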

How the data were processed

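Per the labels' protocols, libraries were made from polyA-selected arch RNA. The deposited values, a normalized signal, are featureCounts read counts per the file headers, scaled by 1 size factor for each library. The tool fastp 0.21.0 and the build mm10 are named in the submitters' processing notes. No aligner, annotation, strand setting or normalizing tool is given in the sources used here. Divided by the step of its column, 100% of the values came out whole within 0.01, and these recovered reads summed to between 29607541 and 47849092 per library. That number limits the precision of low genes such as Esm1 and Stab2.

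Genes with a mean of at least 10, 16746 of 52459, were tested with limma 3.58.1 (R 4.3.3), with trended prior variance, on log2 of the value and a pseudocount of 1. Adjustment was by Benjamini-Hochberg over all genes tested. The fit had 2 residual and 5.26 prior degrees of freedom. With 2 libraries against 2, the smallest two-sided p of an exact permutation test is 0.333. Alternatives covered pseudocounts of 0.5 and 5, filters on low values, TMM and quantile scaling, limma without trend or robust, the replicate number as block, each library omitted, and a spline (4 degrees of freedom) on transcript length with or without GC content. Recovered reads went to edgeR 4.0.16, which called 409 genes higher and 915 lower, and to DESeq2 1.42.0. The limma, edgeR and DESeq2 tests and the length correction were tested on simulated data. GENCODE M21 (GRCm38, which mm10 names) gave positions, exon overlaps and longest transcripts, and RefSeq gave the start sequences.

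Members and gene lists were chosen with earlier results of these data known. Each member is given with its values. Full statistics went to members past the threshold and to the 2 with the smallest p in each role. Of other lists, at most 6 genes past the threshold were named, or where none passed some of the 2 with the smallest p. Further intervals and statistics, and Ptprc, were chosen after their values were seen.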

Additional observations from a re-analysis of the deposited data

How the results depend on the processing

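The 4 libraries limit every call here. Against 498 genes called higher and 884 lower, limma called 0 and 0 without the trend (1560 and 2365 at an unadjusted p under 0.05), 809 higher with robust hyperparameters, 105 and 157 after the length correction and 1284 and 1582 with DESeq2. Leaving out a library gave 0 to 2675 higher and 0 to 2719 lower. Endothelial genes called higher, 1 of 36, became 4 with a mean of at least 50, 3 with quantile normalization, 0 without the trend, 4 with robust hyperparameters, 5 with DESeq2, 0 after the length correction and 2 after the length and GC correction, which also called 1 lower; leaving out a library gave 0 to 8 higher and 0 to 2 lower. With a mean of at least 50, limma called 719 of all genes tested higher and 1052 lower, so that calls rose in the whole table too. Fewer than 36 endothelial genes were tested there, since Esm1, Robo4 and Stab2 fell below that mean. With quantile normalization 505 of all genes were called higher and 942 lower. The cause of the changes in calls was not tested. The median log2 fold change of the endothelial genes, 0.16, was 0.32 after the length and GC correction and 0.033 to 0.24 with a library left out. Same-numbered libraries deviated with a correlation of -0.147 across genes, and the labels do not pair them. The replicate block gave 165 genes higher and 543 lower and left 1 endothelial gene called, with a Cd34 adjusted p of 0.0316; a crossed pairing, added after seeing the data, gave 1763, 1952 and 7.

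Of 609 refitted log2 fold changes of single genes, 546 kept direction and call, 29 gained and 4 lost a call (all 4 of Cd34), and 30 changed sign, in genes that were not called. After the length correction these were Cldn5 (-0.070), Kdr (0.27), Flt1 (0.17), Ramp2 (-0.043), Gja4 (-0.059) and Stab1 (0.015). After the length and GC correction they were Cdh5 (0.014), Kdr (0.31), Flt1 (0.23), Sox18 (0.10) and Stab1 (0.22), and with quantile normalization Sox18 (0.048), Erg (0.0090) and Apln (0.016). With a library left out, Cdh5 ran from -0.17 to 0.054, Cldn5 from -0.11 to 0.39, Flt1 from -0.51 to 0.0075, Flt4 from -0.061 to 0.20, Tie1 from -0.10 to 0.47, Eng from -0.57 to 0.053, Sox17 from -0.00015 to 1.05, Sox18 from -0.31 to 0.27, Erg from -0.33 to 0.19, Apln from -0.36 to 0.22 and Gja4 from -0.068 to 0.37. The Cd34 share differed by 2.73 percentage points between the genotypes, and by 3.46 without the 2 members with the highest level. With a mean of at least 50 there was no value for Esm1, Robo4 and Stab2.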

Other observations

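In the wider endothelial list, 11 of the 33 genes tested had both Wnt1-Cre;pMes-Bmp4 (transgenic) libraries above both wild-type libraries, or 33.3%, against 30.0% of all genes tested, and 9 had them below, or 27.3%, against 29.7%. The genes given here, none of which passed, were named after their values were seen. Adgrl4, an adhesion receptor of endothelium, had 134 and 175 normalized reads in transgenic arches against 83.8 and 69.9 in wild-type, with a limma adjusted p of 0.0752. Procr, the endothelial protein C receptor, had 59.7 and 63.0 in transgenic arches against 26.7 and 27.8 in wild-type, with an adjusted p of 0.0969 in limma. Tmem100, a membrane protein downstream of ACVRL1 in endothelium, had 164 and 196 in transgenic arches against 82.3 and 99.8 in wild-type, with an adjusted p of 0.0632 in limma. The other way lay Cd93, a surface lectin related to Clec14a, with 169 and 171 in transgenic arches against 325 and 274 in wild-type and an adjusted p of 0.0602 in limma. Ptprb, the vascular endothelial protein tyrosine phosphatase, had 42.7 and 44.9 in transgenic arches against 105 and 77.1 in wild-type, with an adjusted p of 0.0996 in limma. Bcl6b, a transcriptional repressor, had 60.8 and 66.7 in transgenic arches against 102 and 111 in wild-type, with an adjusted p of 0.152 in limma. Among the vascular ligands Angpt2, a TEK ligand of sprouting vessels, had 121 and 189 in transgenic arches against 86.8 and 45.3 in wild-type, with an adjusted p of 0.0936 in limma.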
